A study of Mus musculus with 12 samples.

Results

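Cullin-RING ligases attach ubiquitin to chosen proteins, and the genes described here encode their scaffolds and the adaptors that choose the substrate. They were taken as all coding genes named Fbxo, Fbxl, Fbxw or Klhl, or Cul with a digit, together with Rbx1 and Skp1a. Of the 15344 genes measured, 95 met this rule: 8 cullins with Rbx1 and Skp1a, 26 Fbxo genes, 17 Fbxl genes, 9 Fbxw genes and 33 Klhl genes. Another 4 Fbxo genes (Fbxo21, Fbxo30, Fbxo32 and Fbxo40) were left out by the rule. The genes were measured by RNA-Seq in the quadriceps of C57BL/6 mice at 6 months of age, in 3 groups of 4 libraries. The libraries labelled WT came from untreated wild-type mice. The libraries labelled KO came from GAA Knock-out mice injected with PBS, and the libraries labelled AAV from GAA Knock-out mice given the vector AAV2/8-LSPhGAApA by tail vein at 2e12 vg/kg. GAA is the lysosomal enzyme that breaks down glycogen and is deficient in Pompe disease. By the labels, the knockout is carried by both injected groups. The vector's promoter is active in liver, so in the AAV group the human enzyme reaches muscle from the blood rather than being made there. Per the study's methods the injected mice were male and the wild-type mice of matched age.

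A cullin is a long scaffold that holds a RING protein (Rbx1, or Rnf7 for Cul5) at one end and an adaptor at the other. In SCF ligases, Cul1 binds Skp1, which binds an F-box protein. The F-box proteins are named by what else they carry: leucine-rich repeats in Fbxl, WD40 repeats in Fbxw, and other or no known domains in Fbxo. In Cul3 ligases a single BTB-Kelch protein does both jobs, and most Klhl proteins are of this kind. Muscle is known for several of them: mutations of KLHL40 and KLHL41 cause nemaline myopathy, and both proteins sit at the sarcomere and stabilize thin-filament proteins. Klhl31 and Fbxl22 are also found at the sarcomere, where filamin C and alpha-actinin-2 are among the proteins they act on.

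The targeted gene did not follow the labels. Gaa had normalized counts (reads divided by 1 size factor per library) of 343, 14640, 324 and 460 in the libraries labelled WT 1 to 4. It had 12151, 13075, 11936 and 12895 in those labelled KO, and 947, 587, 500 and 9854 in those labelled AAV. Directions below are therefore those of the labels. Over 15154 genes, the library labelled WT 3 correlated best with AAV 3 (r = 0.976, against at most 0.959 with its own group) and AAV 4 correlated best with WT 4 (0.975 against 0.968), while the other 10 libraries correlated best with one of their own group. Counts of called members in the comparisons with KO are given with and without WT 2, whose Gaa stands apart in its group, WT 3 and AAV 4. Libraries held 22122233 to 47379737 reads. The muscle markers Acta1, Ckm, Ttn, Myh4 and Mylpf summed to 3030651 to 5446217 in every library. The markers of slow fibres differed: all 7 (Myh7, Myh7b, Tnni1, Tnnt1, Tnnc1, Myl2 and Myl3) were lower in the libraries labelled KO than WT and higher in AAV than KO, and their sum was 1386 to 4832, 177 to 234 and 1755 to 21446 in WT, KO and AAV. The 4 macrophage markers found did not move together: in KO against WT, Cd68 (log2 fold change -3.35, adjusted p = 0.00513 by limma) and Lyz2 (-1.76, 0.00812) were lower, Cd163 (0.79, 0.0344) was higher and Csf1r (-0.49, 0.241) was not called. They summed to 967 to 3045 in WT, 534 to 941 in KO and 507 to 2481 in AAV. The 5 endothelial markers summed to 1564 to 4522 in WT, 4105 to 5163 in KO and 2982 to 5238 in AAV. In KO against WT, Pecam1 (log2 fold change 0.91, adjusted p = 0.0378 by limma), Cdh5 (1.03, 0.0239) and Vwf (1.975, 0.00128) were higher. Kdr (0.56, 0.312) and Tek (1.205, 0.0609) were not called. In AAV against KO only Vwf was called, and it was lower (-1.065, 0.00682). The 3 red blood cell markers found summed to 327 to 406 in WT, 35.9 to 387 in KO and 363 to 1028 in AAV, and of these Hba-a1 (log2 fold change 2.16, adjusted p = 0.0296 by limma) and Hba-a2 (1.99, 0.0351) were higher in AAV than KO. No marker of these 5 lists was at 0 in any library, and their part in the results below was not tested. In whole muscle, fewer cells of a type and less RNA per cell cannot be told apart.

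Per kilobase of exon, the most abundant member in every group was Klhl41, at 8721 normalized counts per kilobase in the libraries labelled WT, 6925 in KO and 6834 in AAV. In WT it was followed by Klhl40 (5738), Klhl30 (2988), Skp1a (2440), Klhl21 (1785) and Klhl31 (1775). In KO the order after Klhl41 was Klhl31 (3382), Skp1a (2503), Klhl21 (2425), Cul3 (2223) and Klhl40 (1940). At the other end, 5 of the 95 members had a mean of under 10 normalized counts over the 12 libraries and 20 a mean of 10 to under 100, while 43 had 100 to under 1000, 24 had 1000 to under 10000 and 3 (Klhl31, Klhl40 and Klhl41) had more. The libraries labelled KO were the most alike: the median coefficient of variation of members with a mean of at least 50 was 9.5% there, against 20.9% in WT and 17.5% in AAV. Over all genes it was 10.2%, 20.9% and 18.6%.

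The start regions of 3 Kelch-like genes are shown because these genes took different courses: Klhl40 was lower in the libraries labelled KO, Klhl31 was higher, and Klhl41 did not pass the test. Each runs from 250 bases before to 50 bases after the start in RefSeq (GRCm38.p6), 5′ to 3′ on the gene's strand. Capitals mark CAGCTG, an E-box core that myogenic bHLH factors can bind, and in Klhl41 also a MEF2 motif, the site of another family of muscle factors.
Klhl40, chr9:121777357-121777656, plus strand: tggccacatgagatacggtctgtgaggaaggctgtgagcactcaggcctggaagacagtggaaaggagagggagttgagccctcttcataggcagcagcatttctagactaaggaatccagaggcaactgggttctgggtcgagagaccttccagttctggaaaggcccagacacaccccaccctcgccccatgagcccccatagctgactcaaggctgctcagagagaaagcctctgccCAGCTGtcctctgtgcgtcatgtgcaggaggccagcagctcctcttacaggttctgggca
Klhl41, chr2:69669870-69670169, plus strand: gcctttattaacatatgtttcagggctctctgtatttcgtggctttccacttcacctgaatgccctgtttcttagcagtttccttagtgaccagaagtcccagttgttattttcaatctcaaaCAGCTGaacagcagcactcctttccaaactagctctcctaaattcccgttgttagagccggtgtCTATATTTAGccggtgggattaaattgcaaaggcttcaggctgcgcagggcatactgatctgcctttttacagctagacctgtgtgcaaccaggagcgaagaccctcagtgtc
Klhl31, chr9:77636482-77636781, plus strand: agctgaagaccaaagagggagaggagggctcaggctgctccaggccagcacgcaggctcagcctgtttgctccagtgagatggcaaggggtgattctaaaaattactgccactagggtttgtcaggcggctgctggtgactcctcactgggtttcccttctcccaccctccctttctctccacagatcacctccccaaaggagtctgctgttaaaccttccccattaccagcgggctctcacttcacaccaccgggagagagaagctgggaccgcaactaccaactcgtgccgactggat
The E-box began at -10 relative to the start of Klhl40 and at -127 in Klhl41, where the MEF2 motif began at -63. Neither was in the Klhl31 window. There the gene as annotated in GENCODE begins at 77636500, upstream of the RefSeq start, so that most of the window lies within the GENCODE gene. CAGCTG, which reads the same on both strands, was in 16.3% of 32851 mouse promoters of this length and in 19.8% of the 106 promoters listed for 76 members. The MEF2 motif, sought on both strands, was in 3.19% of all promoters and 1.89% of member promoters. These matches describe letters in a window and were not tested as sites.

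In the libraries labelled KO against those labelled WT, 22 of the 93 members tested changed, 11 being higher and 11 lower, with adjusted p-values below 0.05 (limma with Benjamini-Hochberg correction over 14859 genes). The share was 11.8% in each direction, close to the 12.3% higher and 15.3% lower among all genes. Adding a minimum absolute log2 fold change of 1, 11 lower and 2 higher members remained, 13 in all. That rule called 13.9% of all genes, 8.5% lower and 5.43% higher, so that the lower calls outnumbered the higher ones there too. The median log2 fold change was 0.05 for the members and 0.02 for all genes. By family, the calls were 1 higher and 5 lower of 16 Fbxl genes, 3 and 2 of 26 Fbxo genes, 5 and 4 of 33 Klhl genes, 0 of 8 Fbxw genes with limma (1 at an unadjusted p under 0.05) and 2 higher of 10 cullin core genes. Without WT 3, 42 of 92 members were called, 24 higher and 18 lower, with 48.4% of all genes called. Without WT 2 there were 17 calls, with 17.9% of all genes called: Cul3, Fbxl4, Fbxo27, Fbxo42, Klhl20, Klhl34 and Klhl5 were no longer called (adjusted p = 0.0633 to 0.0974), and Cul9 (log2 fold change 0.58, adjusted p = 0.0261) and Fbxo31 (0.47, 0.0256) were called higher. Without KO 1 or KO 4 the count was 12, with 15.9% and 17.4% of all genes called, and without KO 2 or WT 4 it was 13, with 16.4% and 16.0%. Of the 22 calls, 11 held without each library in turn.

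**Figure D1:**
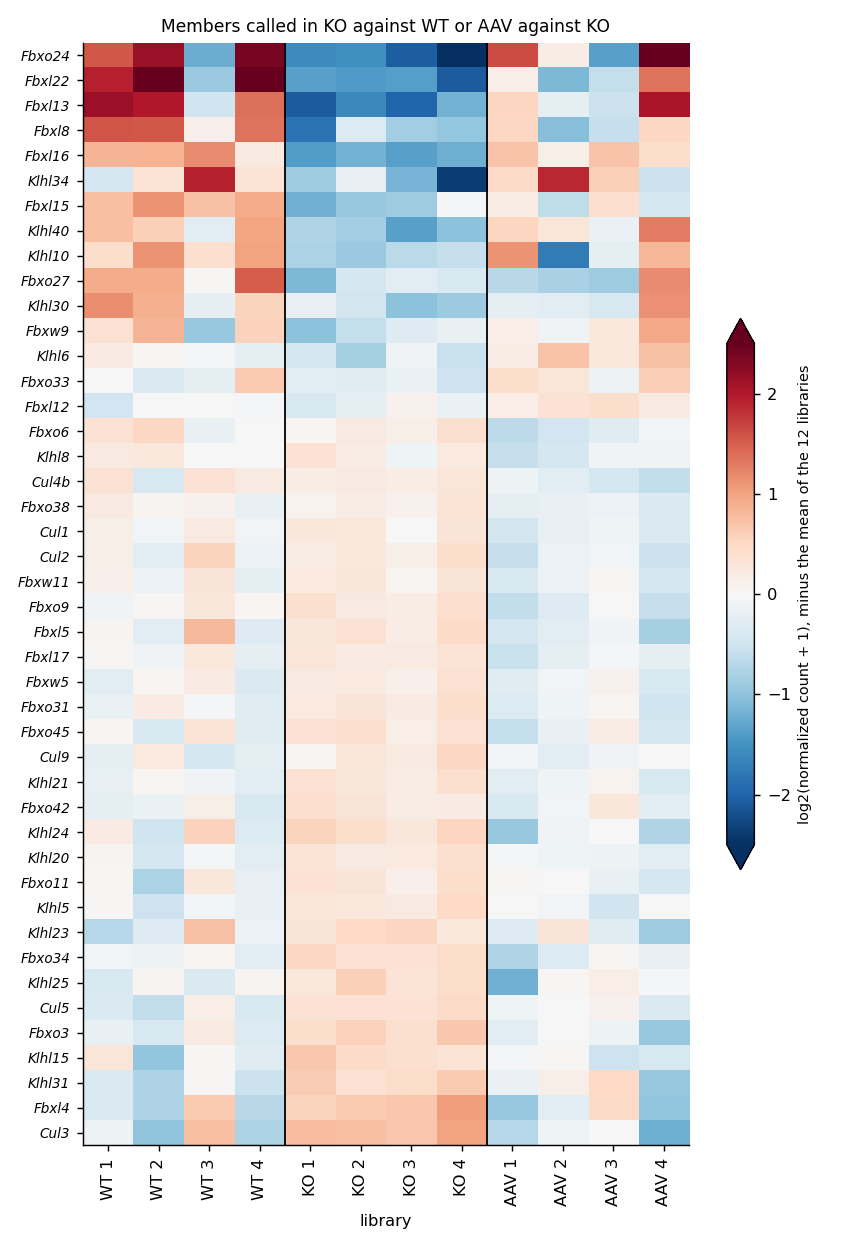
Each row is 1 of 44 of the 45 members called in KO against WT or in AAV against KO, ordered by the former's log2 fold change, and each column is 1 library. Colour gives log2(normalized count + 1) minus the member's mean over the 12 libraries. Among the 45 are 13 members called in both comparisons, all in opposite directions. Both comparisons use the same KO libraries, and the share of all genes called in both was not counted.

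Among the muscle Kelch genes, Klhl40 (chr9:121777607-121783818, GRCm38) fell. Its normalized counts were 16023, 14510, 7852 and 19022 in the libraries labelled WT, 5666, 5269, 3751 and 4722 in KO, and 13919, 11785, 8533 and 23155 in AAV. Every KO library lay below every WT and AAV library, and WT 3 and AAV 3 were the lowest of their groups. In KO against WT the log2 fold change was -1.51 (SE 0.26, adjusted p = 0.00405 by limma), 2.85-fold lower, and -1.77 without WT 3. In AAV against KO, which shares the KO libraries, it was 1.48 (SE 0.27, adjusted p = 0.00662 by limma), 2.80-fold higher, and 1.22 without AAV 4. Both calls held without each library in turn.

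Klhl41 (chr2:69670120-69684230), its close relative, had 23325, 22922, 19540 and 22432 in the libraries labelled WT, 20222, 17378, 15687 and 16764 in KO, and 15621, 20425, 17087 and 16000 in AAV. The KO range reached into the WT range only through KO 1 and WT 3. Its log2 fold change was -0.34 in KO against WT (SE 0.13, adjusted p = 0.0721 by limma) and -0.02 in AAV against KO (SE 0.13, adjusted p = 0.916). The former was called without WT 3 (-0.39, adjusted p = 0.0189), by DESeq2 (-0.34, adjusted p = 0.0259) and with the GC correction (-0.47, adjusted p = 0.0301). The ratio of Klhl40 to Klhl41, which does not depend on how libraries are scaled, was 0.687, 0.633, 0.402 and 0.848 in WT, 0.280, 0.303, 0.239 and 0.282 in KO, and 0.891, 0.577, 0.499 and 1.45 in AAV. The ratio was lower in each KO library than in any other library.

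Klhl31 (chr9:77636500-77660127), which promotes turnover of filamin C in striated muscle, took the opposite course to Klhl40. Normalized counts were 11669, 8793, 15300 and 10336 in WT and 23570, 19672, 20840 and 23773 in KO. The AAV values were 13469, 16587, 21376 and 7788. All KO libraries lay above all WT libraries, while the AAV libraries ran from below the lowest WT library (AAV 4) into the KO range (AAV 3). The log2 fold change was 0.96 in KO against WT (SE 0.17, adjusted p = 0.00513 by limma), 1.94-fold higher, and -0.66 in AAV against KO (SE 0.26, adjusted p = 0.0901). The ratio of Klhl40 to Klhl31 was 0.513 to 1.84 in WT, 0.180 to 0.268 in KO and 0.399 to 2.97 in AAV. Over 8 such ratios and 3 comparisons the smallest of the 24 adjusted p-values was 0.0624 (exact two-sided permutation test, Benjamini-Hochberg), and the smallest p that 4 against 4 libraries allow is 0.0286 before adjustment.

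Klhl30, a muscle-enriched gene, had 12920, 10641, 4914 and 8444 in the libraries labelled WT and 4982, 4160, 2819 and 3056 in KO. The groups overlapped at WT 3. The log2 fold change was -1.25 (SE 0.29, adjusted p = 0.0133 by limma), and -1.52 without WT 3. In AAV it was 4821, 4791 and 4337 in libraries 1 to 3 but 12672 in AAV 4, and the log2 fold change against KO was 0.71 (SE 0.33, adjusted p = 0.131), or 0.35 without AAV 4. Klhl34 had 139, 237, 710 and 236 in WT, 101, 162, 82.7 and 35.4 in KO, and 259, 690, 283 and 128 in AAV. WT 3 and AAV 2 stood above the other libraries of their groups. The log2 fold changes were -1.70 in KO against WT (SE 0.53, adjusted p = 0.0394 by limma) and 1.76 in AAV against KO (SE 0.53, adjusted p = 0.0364), and each was lost on leaving out any of 5 of the 8 libraries. Klhl33 and Klhl38 were not called in either comparison, with log2 fold changes of 0.04 and 0.21 in KO against WT and -0.50 and -0.30 in AAV against KO. Exons of Klhl38 are overlapped over 65.4% of their length by the antisense gene Gm15943, which had a mean of 10.2 normalized counts against 820 for Klhl38.

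**Figure D2:**
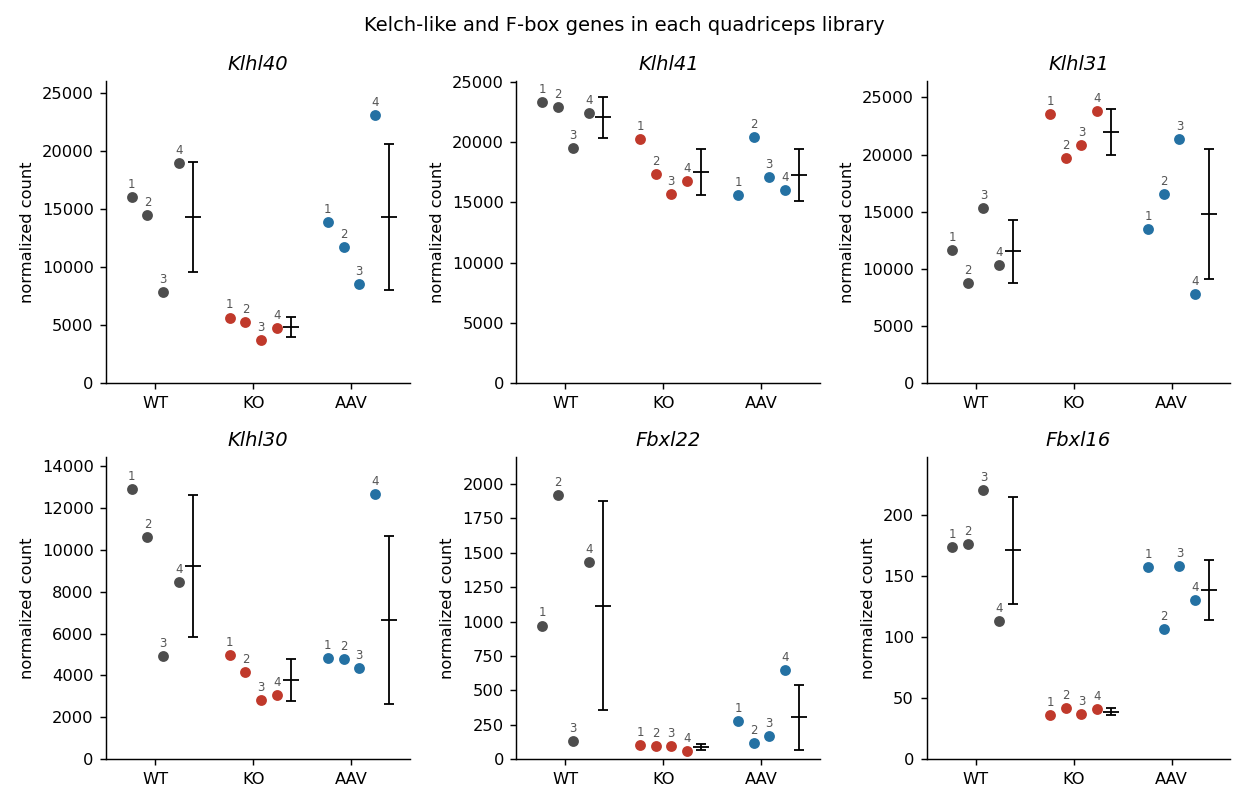
Normalized count of 6 members in each library (points, numbered by replicate), with the mean and SD of the 4 libraries of each group at the right. Klhl40, Klhl30, Fbxl22 and Fbxl16 are lower and Klhl31 is higher in the libraries labelled KO than WT, and Klhl41 differs less.

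Of the F-box genes, Fbxl22 (chr9:66508459-66514593), which acts on alpha-actinin-2 and filamin C at the sarcomere, had one of the largest falls. It had 971, 1920, 133 and 1435 in the libraries labelled WT, 98.6, 94.1, 96.8 and 59.2 in KO, and 278, 115, 167 and 646 in AAV. All KO values were below all others, and WT 3 was near the KO level. The log2 fold change was -3.16 (SE 0.69, adjusted p = 0.0108 by limma) in KO against WT, 8.96-fold lower, and -4.01 without WT 3. Against KO, AAV gave 1.49 (SE 0.45, adjusted p = 0.0367), and 1.02 without AAV 4 (adjusted p = 0.0401). That call was lost without AAV 1 or any 1 of the KO libraries, with all 12 libraries in 1 fit and with the replicate block. Its exons share 8.06% of their length with Herc1 on the opposite strand, and the strand setting of the counting is not given in the sources used here.

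Fbxl16 (chr17:25809085-25821255) gave the lowest adjusted p among the members. This gene, better known from brain, had 174, 177, 220 and 113 in the libraries labelled WT, 35.8, 41.9, 37.0 and 40.7 in KO, and 157, 107, 158 and 130 in AAV. The KO libraries formed a narrow band well below both other groups, WT 3 and AAV 4 included. It was 4.21-fold lower in KO than WT (log2 fold change -2.07, SE 0.22, adjusted p = 0.000513 by limma) and 3.46-fold higher in AAV than KO (1.79, SE 0.19, adjusted p = 0.000607). These calls held under all 13 other settings and without each library in turn.

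The other F-box falls were in low genes. Fbxo24 had 50.7, 77.6, 6.49 and 90.7 in the libraries labelled WT, 1.77 to 5.13 in KO (2 to 6 reads a library), and 53.8, 19.1, 5.91 and 103 in AAV. Fbxl13, also known as a subunit of the dynein regulatory complex of cilia, had 35.3, 31.9, 4.87 and 20.48 in WT, 0.966 to 2.65 in KO (1 to 3 reads a library) and 11.03, 6.04, 4.72 and 33.0 in AAV. In either gene no KO library reached the lowest WT or AAV library, and WT 3 and AAV 3 lay close to KO. On the log2(value + 1) scale, which understates changes at this level, the log2 fold changes were -3.17 and -2.96 in KO against WT (adjusted p = 0.0124 and 0.00763 by limma) and 2.72 and 2.17 in AAV against KO (adjusted p = 0.0262 and 0.0264). The calls in KO against WT held without each library in turn, and the log2 fold changes were -3.99 and -3.55 without WT 3. In AAV against KO, Fbxo24 gave 2.12 without AAV 4 and 3.42 without AAV 3. Its call there was lost without AAV 1 or any 1 of the KO libraries, and that of Fbxl13 without AAV 1, KO 1, KO 2 or KO 3 and without AAV 4 (log2 fold change 1.64, adjusted p = 0.0535).

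Fbxl15, which targets the ubiquitin ligase Smurf1, had 144, 187, 143 and 163 in the libraries labelled WT and 36.7, 43.6, 45.7 and 83.1 in KO, with no overlap. Its log2 fold change was -1.65 (SE 0.26, adjusted p = 0.00275 by limma), and AAV against KO gave 0.66 (adjusted p = 0.144) from values of 97.9, 54.4, 115 and 63.3. As 25.6% of its exon length lies opposite Cuedc2, whose mean was 1914 against 98.0 for Fbxl15, reads of both cannot be told apart if counting ignored strand. Fbxl8, Fbxo27 and Klhl10, the last of these a Cul3 adaptor of spermatids, were also lower, with log2 fold changes of -2.16, -1.41 and -1.49 in KO against WT. Their highest KO values were 23.9, 7.61 and 3.54 against lowest WT values of 33.3, 9.74 and 8.12, and none was called in AAV against KO. Fbxo27 in KO against WT lost its call on leaving out any of 6 libraries.

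Among the F-box genes that were higher, Fbxl4 encodes a mitochondrial outer membrane protein that restrains mitophagy by turning over BNIP3 and NIX. It had 536, 405, 1087 and 427 in the libraries labelled WT, 1013, 1096, 1105 and 1430 in KO, and 358, 572, 965 and 349 in AAV. WT 3 lay in the KO range. The log2 fold change was 1.03 in KO against WT (SE 0.28, adjusted p = 0.0254 by limma), 1.34 without WT 3, and the call was lost on leaving out any other single library. Against KO, AAV gave -1.17 (SE 0.29, adjusted p = 0.0196), a call lost without KO 4 or AAV 1. Fbxo3, whose protein targets Fbxl2 and Smurf1, was steadier: 1940, 1662, 2566 and 1722 in WT, 2976, 3274, 2885 and 3481 in KO, and 1797, 2167, 2017 and 1131 in AAV. The KO libraries lay above all others. Its log2 fold changes of 0.69 (SE 0.15, adjusted p = 0.0106) in KO against WT and -0.86 (SE 0.19, adjusted p = 0.0124, limma) in AAV against KO were called in all 13 other settings and without each library in turn.

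The remaining rises of F-box and Kelch genes in KO against WT were of 1.48-fold or less. These were Klhl25, an adaptor for 4E-BP1 and ATP-citrate lyase (log2 fold change 0.57), Fbxo34 (0.53), Klhl5 (0.50), Klhl20 (0.48), Fbxo42 (0.45) and Klhl21 (0.44), with adjusted p from 0.0193 to 0.0488 by limma. In each of the 6, listed here because they were called, all KO libraries lay above all WT libraries. The share of all genes without overlap was not counted. Klhl5 was the least steady, called under 4 of 13 other settings, and its call and that of Fbxo42 held without only 1 of the 8 libraries, WT 3. Those of Klhl20, Klhl21, Klhl25 and Fbxo34 held without 2, 3, 3 and 4 of the 8. The transcript of Fbxo34 shares 96.1% identity over 61.1% of its length with the pseudogene Gm7224, which had a mean of 6.05.

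**Figure D3:**
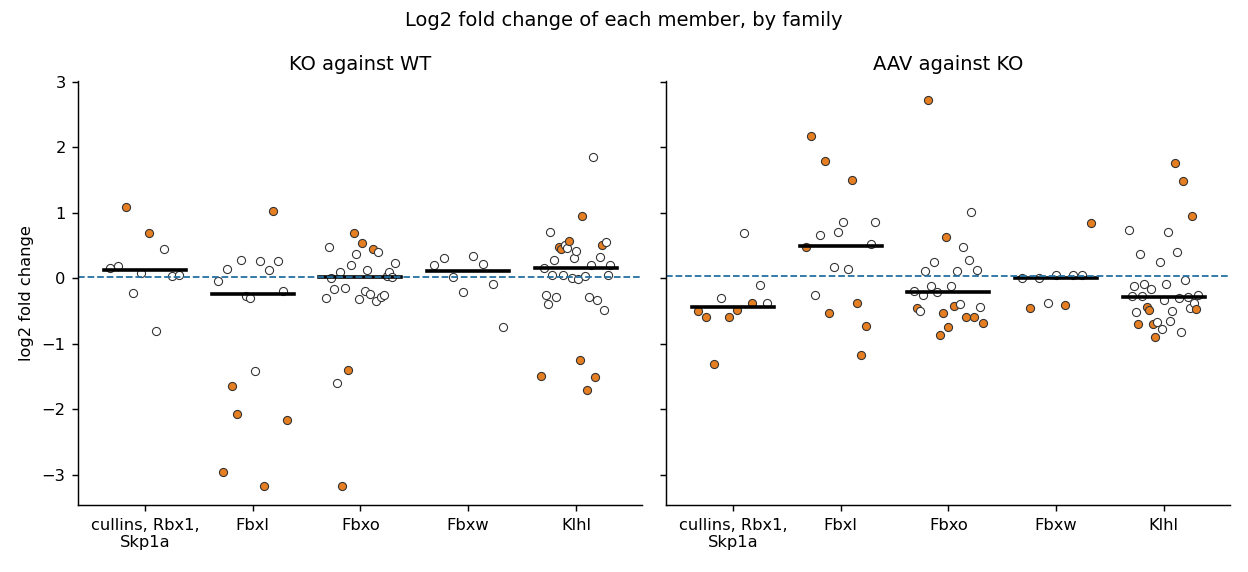
Log2 fold change of every tested member by family in KO against WT (left) and AAV against KO (right). Filled points are called (adjusted p under 0.05, limma), black bars are family medians and the dashed line is the median of all genes. The cullin core lies at a median of 0.12 on the left and -0.43 on the right.

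Of the cullin core, Cul3 and Cul5 were higher in the libraries labelled KO than WT. Cul3 (chr1:80264923-80340480), the scaffold of all Kelch ligases, had 5634, 3079, 10477 and 3575 normalized counts in WT, 10624, 10392, 9889 and 12417 in KO, and 3753, 5755, 6193 and 2654 in AAV. WT 3 lay among the KO libraries, while the other WT libraries and all AAV libraries were below the KO range. The log2 fold change was 1.10 in KO against WT (SE 0.33, adjusted p = 0.0330 by limma), 1.45 without WT 3 (adjusted p = 0.000217), and the call was lost without any other single library or with edgeR. AAV against KO gave -1.31 (SE 0.24, adjusted p = 0.00716), 2.49-fold lower, and the call held in every alternative run.

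Cul5, the scaffold for SOCS-box adaptors, had 2101, 1756, 2997 and 2056 in the libraries labelled WT, 3473, 3457, 3450 and 3734 in KO, and 2493, 2697, 2878 and 2092 in AAV. The KO libraries were above all others. It was 1.61-fold higher in KO than WT (log2 fold change 0.69, SE 0.16, adjusted p = 0.0123 by limma) and 1.40-fold lower in AAV than KO (-0.48, SE 0.12, adjusted p = 0.0164). The first call held without each library in turn, and the second was lost without KO 4, with the replicate block and with the GC correction. The ratio of Cul5 to Cul4a, free of library scaling, was 0.516 to 0.807 in WT, 1.17 to 1.30 in KO and 0.910 to 1.27 in AAV, so that the AAV libraries overlapped KO but not WT.

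The other cullins were not called by limma in KO against WT, with log2 fold changes from -0.80 (Cul7, adjusted p = 0.0647 by limma) to 0.44 (Cul9, 0.0752). Without WT 3, Cul7 was lower (-1.09, adjusted p = 0.0014) and Cul2 higher (0.35, 0.0452). Cul7 was also called lower by DESeq2 (-0.89, adjusted p = 0.0167) and edgeR (-0.89, 0.0473), Cul9 higher with the GC correction (0.73, 0.00211), and Cul4a lower and Cul7 lower with the gene length correction (-0.38, 0.0272, and -0.98, 0.0494). In AAV against KO, Cul1, the SCF scaffold, fell by 0.50 on the log2 scale (adjusted p = 0.0156, limma), Cul2, the VHL scaffold, by 0.59 (0.0168), Cul4b, a scaffold for DCAF adaptors, by 0.58 (0.0168) and Cul9, a cytoplasmic p53 partner, by 0.38 (0.0480). All 4, listed here because they were called, had no overlap between groups. The share of all genes without overlap was not counted. The call of Cul9 was lost without any of 6 libraries. Those of Cul1, Cul2 and Cul4b were lost without KO 4, those of Cul1 and Cul4b also with the replicate block, and those of Cul2 and Cul4b also with the GC correction. Cul1 had 2831, 2788, 2353 and 2928 in KO and 1683, 2032, 2175 and 1809 in AAV, beside 2576, 2222, 2731 and 2231 in WT. Under scaling by total reads Cul4b and Cul9 were no longer called. Cul4a gave -0.30 (adjusted p = 0.0882) and Cul7 0.69 (0.112), the latter being called higher by DESeq2 (0.78, 0.0426). Without AAV 3 both were called (-0.37, 0.0331, and 0.99, 0.00874).

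The shared subunits that complete the ligase were not called by limma. Rbx1, the RING protein that recruits the ubiquitin-loaded E2, was 2233 ± 144 in the libraries labelled WT, 2284 ± 117 in KO and 2142 ± 316 in AAV (mean ± SD, n = 4 each). Its log2 fold changes were 0.03 (SE 0.10, adjusted p = 0.825 by limma) in KO against WT and -0.10 (SE 0.12, adjusted p = 0.540) in AAV against KO. Skp1a, the linker between Cul1 and F-box proteins, gave 0.05 (SE 0.13, adjusted p = 0.808) and -0.37 (SE 0.16, adjusted p = 0.112). The latter was called without AAV 3 (-0.47, adjusted p = 0.0435) and with the gene length correction (-0.53, 0.0447). The ratio of Cul3 to Cul1 was 3.73 to 4.24 in the KO libraries and 1.47 to 2.85 in AAV, and in WT it was 2.19, 1.39, 3.84 and 1.60, WT 3 again being the one within the KO range.

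**Figure D4:**
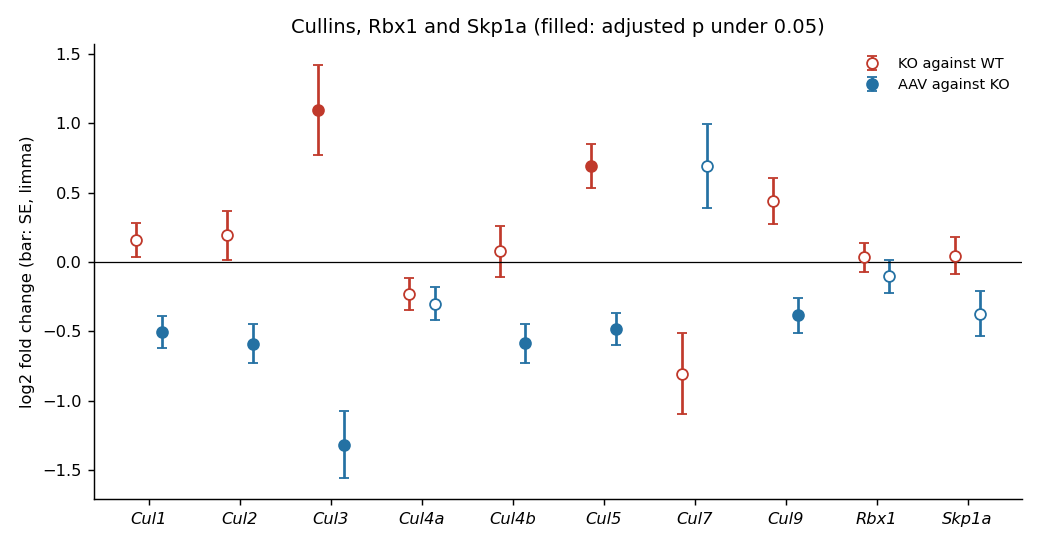
Log2 fold change and SE (limma) of the 8 cullins, Rbx1 and Skp1a in KO against WT (red) and AAV against KO (blue), which share the KO libraries. Filled points have an adjusted p under 0.05: 2 are higher in KO than WT, and 6 are lower in AAV than KO.

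In the libraries labelled AAV against those labelled KO, 36 of 93 members changed by the same test, 10 being higher and 26 lower. The lower members made 28.0% of those tested, against 13.4% of all genes, and the higher ones 10.8%, against 12.8%. Most falls were small, and only 8 members (6 higher and 2 lower, Cul3 and Fbxl4) also reached an absolute log2 fold change of 1, a rule that called 8.98% of all genes, 5.43% higher and 3.55% lower. The median log2 fold change was -0.26 for the members and 0.04 for all genes. Under scaling by total reads these became -0.09 and 0.21 and the calls 11 higher and 14 lower, 25 in all. That scaling called 24.5% of all genes, against 26.3% in the main test. The members' median relative to that of all genes was -0.30 under both. The gene lists given below were not recounted under scaling by total reads. By family the calls were 0 higher and 6 lower in the cullin core, 2 and 8 in Fbxo, 3 and 6 in Klhl, 4 and 4 in Fbxl and 1 and 2 in Fbxw. Without AAV 4, 28 were called, 6 higher and 22 lower, with 22.1% of all genes called. Without KO 1, KO 2, KO 4 or AAV 1 the count was 18, 16, 11 and 19, with 13.5%, 14.3%, 13.2% and 15.0% of all genes called against 26.3% with all libraries.

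Of the Kelch genes that fell here, Klhl24, an adaptor known for the turnover of keratin 14, had 3895, 3586, 3224 and 3811 in the libraries labelled KO and 1366, 2486, 2642 and 1567 in AAV, beside 3057, 1862, 3950 and 2081 in WT. AAV lay below KO throughout. WT overlapped both groups, with AAV 1 and AAV 4 below the lowest WT library. Its log2 fold change was -0.90 in AAV against KO (SE 0.21, adjusted p = 0.0146 by limma) and 0.47 in KO against WT (SE 0.22, adjusted p = 0.132), or 0.67 without WT 3 (adjusted p = 0.0073). Klhl15, Klhl23, Klhl21, Klhl8 and Klhl20 fell by 0.44 to 0.70 on the log2 scale. Klhl21, which serves Cul3 in cytokinesis, was abundant at 10148, 9426, 8857 and 10227 in KO and 6388, 7261, 8232 and 5896 in AAV, a log2 fold change of -0.49 (SE 0.13, adjusted p = 0.0217). Its call held without 4 of the 8 libraries, and the calls of Klhl15, Klhl20, Klhl8 and Klhl23 without 6, 5, 3 and 1 of them.

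Of the F-box genes, Fbxl5, the iron sensor that directs turnover of IRP2, had 1235, 1322, 1163 and 1416 in the libraries labelled KO and 764, 834, 963 and 572 in AAV. The groups did not overlap, and the log2 fold change was -0.73 (SE 0.16, adjusted p = 0.0114 by limma). Fbxo9 (-0.68, SE 0.14, adjusted p = 0.0111), Fbxo34 (-0.74, SE 0.17, adjusted p = 0.0155) and Fbxl17 (-0.54, SE 0.12, adjusted p = 0.0135), whose protein checks the pairing of BTB domains, fell as well. With Cul3, Fbxo3, Fbxl16, Klhl40, Klhl24 and Fbxl5 they made up the 9 members whose call held without each library in turn. Fbxo6, which binds N-linked glycans, fell by 0.59 on the log2 scale (adjusted p = 0.0176), and Fbxo31, an adaptor for cyclin D1, by 0.53 (0.0201). Fbxo45 fell by 0.60, with overlap between the groups. These 3 calls held without 7, 5 and 3 of the 8 libraries. Another 6 members fell by 0.41 to 0.54, and of these Fbxl17 is named here after its values were seen.

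Besides the 6 members already given, 4 rose in AAV against KO. Klhl6, an adaptor best known from B lymphocytes, had 19.3, 14.5, 25.0 and 17.7 in the libraries labelled KO and 30.3, 44.3, 31.9 and 45.0 in AAV, a log2 fold change of 0.95 (SE 0.26, adjusted p = 0.0269 by limma). Fbxw9 gave 0.85 (SE 0.27, adjusted p = 0.0409), Fbxo33 0.63 (SE 0.18, adjusted p = 0.0300) and Fbxl12 0.47 (SE 0.15, adjusted p = 0.0403). The first 3 of these were no longer called without AAV 4 (adjusted p = 0.0545, 0.0773 and 0.0581). Leaving out each library in turn, the call of Klhl6 held without 3 of the 8 and those of Fbxw9, Fbxo33 and Fbxl12 without 2, and that of Fbxl12 was also lost with edgeR and with the GC correction. Fbxl12 lies opposite Ubl5 over 37.1% of its exon length, and Ubl5 had a mean of 2087 against 192 for Fbxl12.

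In the libraries labelled AAV against those labelled WT, 0 of 94 members were called with limma and Benjamini-Hochberg adjustment, where 0.951% of all genes were higher, 0.341% lower and 0.951% called with the minimum fold change. At an unadjusted p under 0.05 there were 15 members, beside 2719 of the 14939 genes tested. On recovered reads DESeq2 called 3, all lower (Cul4a, Fbxl15 and Klhl13), with 6.31% of all genes called, and edgeR 0, with 1.08%. The median log2 fold change was -0.12 for the members and -0.03 for all genes, and 0.03 against 0.12 under scaling by total reads. Cul4a had 3519, 3404, 3713 and 2957 in WT and 1964, 2440, 2743 and 2300 in AAV, without overlap (log2 fold change -0.53, adjusted p = 0.108 by limma). Without WT 3 and AAV 4, 10 members were called, Klhl31 and Klhl7 higher and Fbxl13, Fbxl2, Fbxl22, Fbxl8, Fbxo10, Fbxo27, Fbxo6 and Klhl30 lower, with 13.8% of all genes called.

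Of 45 members called in one or both of the comparisons with KO, 13 were called in both, each in opposite directions. As both comparisons use the same 4 libraries labelled KO, an unusual level there enters both. Of all genes tested, 27.6% were called in KO against WT and 26.3% in AAV against KO. The share of all genes called in both was not counted, so these counts do not set the members apart. The 13 were Cul3, Cul5, Fbxl4, Fbxo3, Fbxo34, Klhl20 and Klhl21, highest in KO, and Fbxl13, Fbxl16, Fbxl22, Fbxo24, Klhl34 and Klhl40, lowest in KO. By limma with all libraries, another 19 were called lower in AAV against KO but not called in KO against WT and 4 higher. Conversely, 4 were called higher in KO against WT but not called in AAV against KO (Fbxo42, Klhl25, Klhl31 and Klhl5) and 5 lower (Fbxl15, Fbxl8, Fbxo27, Klhl10 and Klhl30). Whether the 2 comparisons differ was not tested, and several of these members were called in both under other settings. Klhl31 (-0.86, adjusted p = 0.0196) and Fbxo42 (-0.53, 0.0124) were lower in AAV against KO without AAV 3, Fbxo42 also with the GC correction (-0.48, 0.0454), and Klhl5 by DESeq2 (-0.46, 0.039). Without WT 3, Cul2, Fbxl17, Fbxl5, Fbxo11, Fbxo31, Fbxo45, Fbxo9, Fbxw5, Klhl15, Klhl23 and Klhl24 were higher and Fbxw9 lower in KO against WT. That run called 48.4% of all genes. Fbxl7 had under 10 normalized counts in all libraries and was not tested, nor were Fbxw10 in KO against WT and Fbxo2 in AAV against KO for the same reason.

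**Figure D5:**
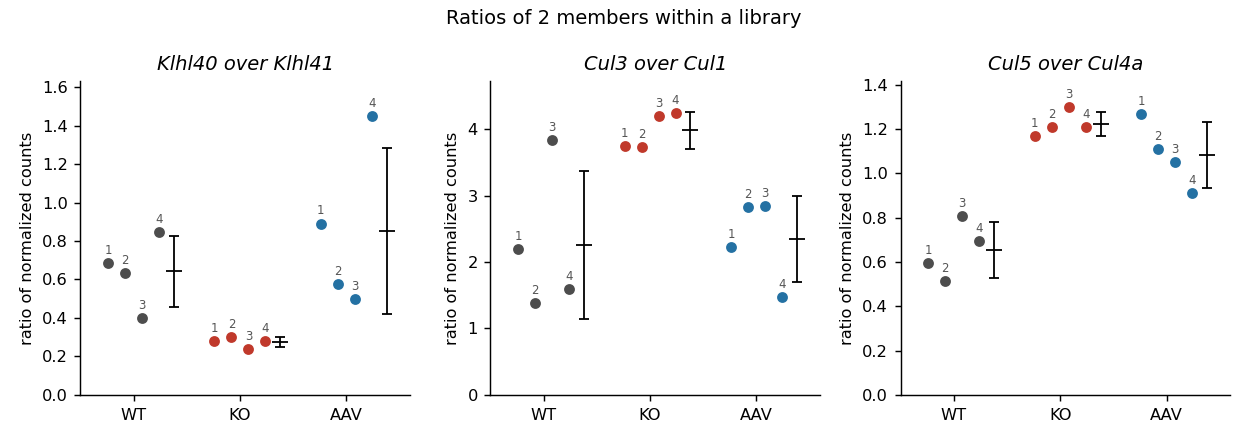
Ratio of the normalized counts of 2 members in each library (points, numbered by replicate), with the mean and SD of 4 libraries at the right. Klhl40 over Klhl41 is lowest in the 4 libraries labelled KO, Cul3 over Cul1 is high in KO and in WT 3, and Cul5 over Cul4a is lowest in WT.

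Some members known from muscle or from textbook substrates were not called by limma in either comparison with KO. Fbxw7, the ligase adaptor for cyclin E and Notch, had 1047, 924, 1053 and 1818 in the libraries labelled WT, 1298 to 1462 in KO and 1241 to 1677 in AAV, with log2 fold changes of 0.22 and 0.05. Without WT 4, the highest WT library, the former was 0.43 and was called (adjusted p = 0.0417). Klhl9 and Klhl13, partners in cell division, gave 0.20 and -0.39 in KO against WT and -0.25 and -0.52 in AAV against KO. Klhl12, which acts on Sec31a in collagen export, gave -0.26 (adjusted p = 0.0926 by limma) and -0.12, and it was called lower in KO against WT by DESeq2 (-0.26, adjusted p = 0.0352), with the GC correction (-0.47, 0.0184) and with the gene length correction (-0.52, 0.0104). Klhl2 and Klhl3, both of which act on WNK kinases, gave -0.29 and -0.0032 in KO against WT, Klhl3 at a mean of 9.73 in WT. Fbxo44 was variable at 22.6, 105, 209 and 69.2 in WT and 16.5 to 159 in AAV, and Fbxo2 was at 11.4 or less in every library, though called lower in KO against WT with all 12 libraries in 1 fit (adjusted p = 0.0488).

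Cullins are activated by attachment of the small protein NEDD8. Of 32 regulators of cullin-RING ligases tested in KO against WT, which include the enzymes of this step, the signalosome that reverses it and ubiquitin E2 enzymes, 6 were higher and 6 lower and 20 were not called. The share was 18.8% in each direction, against 12.3% higher and 15.3% lower among all genes. Without WT 2, 3 were higher (Cand2, Dcun1d4 and Ube2g1) and 3 lower (Nedd8, Ube2m and Rnf7), 9.38% each way against 7.65% and 10.2% of all genes. Without WT 3, 11 were higher (34.4%) and 6 lower (18.8%), against 24.2% each way of all genes. Those lower were Nedd8 itself, at 2074, 2878, 1733 and 2575 in the libraries labelled WT and 1456, 1467, 1597 and 1441 in KO (log2 fold change -0.61, SE 0.16, adjusted p = 0.0207 by limma), its E2 enzymes Ube2m (-0.83, adjusted p = 0.0232) and Ube2f (adjusted p = 0.0376), the Cul5 RING partner Rnf7 (-0.56, 0.00553), the E2 Cdc34 (-0.51, 0.0459) and the signalosome subunit Cops6 (-0.35, 0.0443). Those higher were the neddylation cofactors Dcun1d4, Dcun1d2 and Dcun1d1 (log2 fold changes of 1.495, 0.88 and 0.49), the E2 Ube2g1 (1.04), the exchange factor Cand2 (0.66) and the signalosome subunit Cops2 (0.62). Dcun1d4 had 183, 97.8, 244 and 138 in WT, 446, 434, 408 and 489 in KO and 119, 191, 233 and 121 in AAV, the KO libraries standing above all others. In AAV against KO, 2 regulators were higher (Nedd8, 0.39, and Ube2m, 0.65) and 12 lower (37.5%, against 13.4% of all genes), Dcun1d4 by the most at -1.47 (SE 0.22, adjusted p = 0.00359 by limma). Without AAV 4 the counts were 2 and 10 (6.25% and 31.2%, against 10.8% and 11.3% of all genes).

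Of 59 other cullin adaptors, 12 were higher (20.3%, against 12.3% of all genes) and 5 lower (8.48%, against 15.3%) in KO against WT. Between AAV and KO, 3 were higher in AAV (5.08%, against 12.8%) and 20 lower (33.9%, against 13.4%). The counts in KO against WT were 8 and 2 without WT 2 (13.6% and 3.39%, against 7.65% and 10.2% of all genes) and 22 and 6 without WT 3 (37.3% and 10.2%, against 24.2% each way). Those in AAV against KO were 3 and 15 without AAV 4 (5.08% and 25.4%, against 10.8% and 11.3%). Asb14, a SOCS-box protein of the Cul5 ligases, was at 1306, 1141, 2554 and 1153 in the libraries labelled WT and 3965, 3366, 3353 and 4153 in KO (log2 fold change 1.35, SE 0.24, adjusted p = 0.00496 by limma). It was -1.10 in AAV against KO (SE 0.19, adjusted p = 0.00541). Rhobtb1, a Cul3 adaptor, gave 1.04 and -1.31 (adjusted p = 0.00406 and 0.00531), and Dcaf5, a DDB1-Cul4 adaptor, 0.76 and -0.94 (0.00653 and 0.00449). Socs3, which restrains cytokine signalling, had the largest fall at -2.74 (SE 0.30, adjusted p = 0.000584), from 519, 732, 582 and 833 in WT to 165, 62.4, 119 and 73.4 in KO. In AAV against WT, Ddb2 was higher (1.30, adjusted p = 0.0400 by limma) and Asb18 lower (-1.62, adjusted p = 0.0470), and neither was called without WT 2 or without AAV 4.

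Of 14 substrates and partners of these adaptors, 3 were higher (23.1%, against 12.3% of all genes) and 4 lower (30.8%, against 15.3%) of the 13 tested in KO against WT. These became 2 and 2 without WT 2 (15.4% each way, against 7.65% and 10.2%) and 6 and 5 without WT 3 (46.2% and 38.5%, against 24.2% each way). Lmod3, the thin-filament protein that KLHL40 stabilizes, had 5586, 7251, 4395 and 7583 in the libraries labelled WT, 3411, 3360, 3956 and 3133 in KO and 7051, 6360, 4596 and 6848 in AAV. All KO libraries were below all others, with log2 fold changes of -0.81 (SE 0.18, adjusted p = 0.0107 by limma) and 0.83 (SE 0.15, adjusted p = 0.00651). Neb, the other KLHL40 partner, gave 0.77 (adjusted p = 0.0720, and 0.00289 without WT 3) and -0.66 (0.0667). Actn2 and Flnc, on which Fbxl22 acts, were lower in KO than WT by 1.84 and 0.61 on the log2 scale (log2 fold changes -1.84 and -0.61, adjusted p = 0.00208 and 0.0320), Flnc not without WT 2 (adjusted p = 0.0685), and Actn2 was higher in AAV than KO (1.43, adjusted p = 0.00971). Bnip3, a target of Fbxl4, was higher in KO than WT (0.92, adjusted p = 0.0154) and lower in AAV than KO (-0.72, adjusted p = 0.0305). Bnip3l, the gene of its target NIX, was higher in KO than WT (0.58, adjusted p = 0.0361). It was not called in AAV against KO (-0.34, adjusted p = 0.189). Between AAV and KO, 2 of the 14 were higher in AAV (14.3%, against 12.8% of all genes) and 3 lower (21.4%, against 13.4%), also without AAV 4. The study measured transcripts, and the amounts of these proteins were not measured here.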

How the data were processed

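RNA-Seq was made from quadriceps RNA of 12 mice (3 groups of 4, from the labels). The authors trimmed reads with Trim Galore 0.4.1, checked them with FastQC 0.11.2, mapped them with STAR to GRCm38, kept reads at a single location, counted genes with HTSeq 0.6.1 and dropped genes that reached 10 reads nowhere. The deposited values are normalized signal: counts that the authors divided by 1 DESeq2 (1.16.1) size factor per library. All values were whole multiples of 1 step (100% within 0.01 reads in 12 libraries), so reads could be recovered. The 2 deposited tables also hold the authors' fold changes and p-values, which were not used. Values of the KO libraries differed by 0 between them, and 0 columns belonged to other samples.

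The main test was limma 3.58.1 with a trend (R 4.3.3) on log2(value + 1), run on genes reaching 10 in 1 or more of the 8 libraries of a comparison and adjusted across these genes by Benjamini-Hochberg. Alternatives used edgeR 4.0.16 and DESeq2 1.42.0 on recovered reads, other scalings, filters, pseudocounts, corrections and samples. On simulated KO against WT counts, limma recovered 72.5% of 200 genes changed by 1 on the log2 scale and 100% of those changed by 2. Of its calls, 4.61% and 5.21% were false. The simulation gave all genes and both groups the same spread beyond counting error. It left low genes unchanged and had no library apart, so these shares need not hold for the data. A two-sided exact permutation test of 4 against 4 libraries cannot go below 0.0286. It reached that value for 22 of 54 named members in KO against WT, 30 in AAV against KO and 6 in AAV against WT, unadjusted. Many of the 54 were named for their calls in the comparisons with KO. The share of all genes at that value was not counted, so these counts lend the calls no support. Counting error is large for members with few reads, such as Fbxl13 and Fbxo24 (1 to 6 reads in a KO library). The p-values measure the spread between mice as labelled.

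Members were matched to GENCODE M21 by identifier (94 of 95, Klhl17 excepted). BLAST 2.17.0 found near-identical transcripts. Named were the cullin core, members with a textbook role in muscle, and the 10 largest rises and falls called per comparison, with others by counts. Members and lists were chosen with earlier results of these data known. Of the 54 members taken by the naming rule, 1 is not reported here.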

Additional observations from a re-analysis of the deposited data

Results flagged for a closer look

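Of 162 groups of 4 libraries (54 named members in 3 groups), 7 had 1 library whose gap to the nearest other exceeded the 95% limit of Dixon's test. Chance flags about 1 in 20 groups. Klhl30 was 12672 in AAV 4, against 4821 for the next library, and Fbxo27 was 22.9 there, against 5.51. In the libraries labelled KO, Cul5 was 3734 in KO 4 (next 3473) and Fbxl22 was 59.2 in KO 4 (next 94.1). In those labelled WT, Fbxw7 was 1818 in WT 4 (next 1053) and Fbxl12 was 134 in WT 1 (next 184). Klhl5 was 90.9 in AAV 3 (next 124).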

How the results depend on the processing

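In KO against WT, 22 members were called, and 13 with the minimum fold change. Leaving out WT 3 gave 42 members and a median log2 fold change of 0.12. Without each library in turn the count ran from 12 to 42 and the median from 0.028 to 0.117. In AAV against KO, 36 were called, and 8 with the minimum fold change, 17 with the replicate number as a block and 15 with the block and a GC correction, where 14.6% and 13.2% of all genes were called against 26.3% without these. The median of -0.26 became -0.093 under scaling by total reads and -0.20 with the GC correction, with or without the block. Without each library in turn the count ran from 11 to 42 and the median from -0.29 to -0.17. In AAV against WT, the count of 0 became 3 with DESeq2, 2 with all 12 libraries in 1 fit (Cul4a and Klhl13, with 5.89% of all genes called), and 10 without WT 3 and AAV 4. The median of -0.12 became 0.028 under scaling by total reads, where that of all genes was 0.12. Without each library in turn the count ran from 0 to 1 and the median from -0.19 to -0.12. The replicate block gave 15 calls in KO against WT, with 20.6% of all genes called against 27.6% without it, and 0 in AAV against WT, with 0.884%. Same-numbered libraries do not share a mouse, and their deviations correlated from -0.355 to 0.554. The highest were 0.554 for WT 3 with AAV 3 and 0.478 for WT 4 with AAV 4. Differently numbered pairs were not compared, and whether the numbers mark anything shared was not tested. Over the named members no value changed sign with a call. Of 1132 values in KO against WT, 97 lost and 45 gained a call, of 1110 in AAV against KO, 163 and 9, and of 1132 in AAV against WT, 0 and 13. The cause of these shifts was not tested. Depth limits the genes with fewer than 10 reads in a library, such as Fbxl13 and Klhl10. Leaving out WT 3 with AAV 4, and recounting the gene lists without WT 2, WT 3 or AAV 4, were choices made after seeing the data.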
